A study of Mus musculus with 2 samples.

Results

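Genes for glycosyltransferases, the mannosidases that trim N-glycans and the sulfotransferases that act on glycans were followed in RNA-seq of sorted mouse lung epithelial cells. Members were taken by gene symbol, as every symbol of the Galnt, B3gnt, B3galt, B3galnt, B3gat, B4galt, B4galnt, St3gal, St6gal, St6galnac, Fut, Gcnt, Mgat, Chst, Man1, Alg and C1galt families. This gave 118 of the 22072 gene symbols in the tables. The rule itself used no measured value, but earlier results of these data were known when it was chosen.

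The 2 libraries were 1 per genotype, each from RNA of 4 adult mice pooled after sorting. All mice carried a tetOCre transgene and floxed alleles of Mst1 and Mst2, and all ate doxycycline food at 625 mg/kg for 16 days. The control mice had no transactivator. The other mice also carried rtTA, the doxycycline-dependent transactivator, under the promoter of Scgb1a1, the gene of the main secretory protein of club cells, which are the secretory cells of the small airways. Their library, labelled Mst1/2-deleted, is called the deleted library here. The sort kept lineage-negative cells with CD326 (Epcam) and an intermediate level of CD24, to enrich secretory airway cells. Besides the deletion, rtTA and active Cre also distinguish the genotypes, and effects of these cannot be told apart. With 1 pooled library per genotype no value has a replicate error and no test was possible. Differences are therefore given as values of these 2 libraries.

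Glycans are built by enzymes of the endoplasmic reticulum and the Golgi that act in sequence. N-glycans begin as a lipid-linked precursor that is transferred to protein, trimmed by mannosidases and then branched by GlcNAc transferases. Mucin-type O-glycans begin with GalNAc placed on serine or threonine, and galactose, GlcNAc, sialic acid, fucose and sulfate are added afterwards. In the airways such glycans form most of the mass of mucins and lie over the surface of epithelial cells.

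Approximate reads on listed transcripts numbered 8772260 for the controls and 8339860 for the deleted library. Stk4, which encodes Mst1, was at 5.38 FPKM in the control and 4.71 in the deleted library (FPKM ratio 0.874, counting interval 0.783 to 0.974). Stk3, which encodes Mst2, was at 7.28 and 7.09 FPKM. FPKM, a fragment count divided by transcript length and by library size, covered the whole transcript and which exons were floxed is not known here, so these values do not check the deletion. The sort antigen genes Epcam (28.2 and 31.0 FPKM) and Cd24a (127 and 116 FPKM) were present in both libraries. Scgb1a1 is listed at 0 in both through a failed estimate, while the club cell gene Cyp2f2 was at 4694 and 5305 FPKM.

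Marker lists of several cell types differed between the libraries. Of the 6 measured genes of the club cell list, 4 were at least 1.5-fold lower in the deleted library, beside 2.59% of all measured genes. Among these 4, Scgb3a2 was at 691 FPKM in the control library and 256 in the deleted library. The other 2 were higher, Cyp2f2 with a ratio of 1.13 and Sftpd, at 151 and 182 FPKM, with a ratio of 1.20. Club cell markers summed to 6229 and 5933 FPKM, and Cyp2f2 made up most of both sums. The 8 markers of alveolar type 2 cells, the surfactant-making cells of the alveolus, summed to 11207 and 13990 FPKM, so RNA of that type was abundant in both libraries. The 9 markers of alveolar type 1 cells summed to 114 and 297 FPKM. In the deleted library 7 of them were at least 1.5-fold higher, beside 3.02% of all measured genes. Mucous cell markers summed to 31.6 and 10.2 FPKM, basal cell markers to 24.9 and 9.26 and ciliated cell markers to 30.6 and 49.3. Leukocyte markers summed to 14.4 and 5.69, mesenchymal markers to 19.1 and 7.81 and endothelial markers to 11.6 and 6.76. Single genes set much of some sums. Tppp3 made up most of the ciliated sum, though all 5 measured ciliated genes were higher in the deleted library. Dcn gave 11.9 and 3.79 FPKM of the mesenchymal sums. All 4 measured mesenchymal genes were lower, but Col1a2 differed little (ratio 0.914). Kdr, at 9.05 and 5.11 FPKM, was the only measured endothelial gene of 6. Of 6 measured leukocyte genes 5 were lower and Cd79a was higher (ratio 2.02). Several measured markers reached 1 FPKM only in the library where they were higher, which favours such counts. Among them were Ak7, Ccdc39 and Dnali1 of the ciliated list and Rtkn2 of the alveolar type 1 list. Cd52, Coro1a, Laptm5, Tyrobp and Cd79a of the leukocyte list and Col3a1 and Mfap4 of the mesenchymal list were others. The part of these marker differences in the results that follow was not tested. In bulk samples such as these, fewer cells of a type and less RNA per cell cannot be told apart.

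The glycosylation genes as a whole stood at nearly the same level in both libraries. Their FPKM summed to 283 in the control library and 289 in the deleted library. Of the 118 members, 58 reached 1 FPKM in at least 1 library and are called measured. That is 49.2% of members, beside 45.1% of all gene symbols. Of the measured members, 54 reached 1 FPKM in both libraries. Alg13 and B3galt2 passed only through the control library, and B3galtl and St6galnac4 only through the deleted library. Most were expressed at a modest level: 22 members reached 5 FPKM in at least 1 library and 5 reached 10 FPKM.

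**Figure D1:**
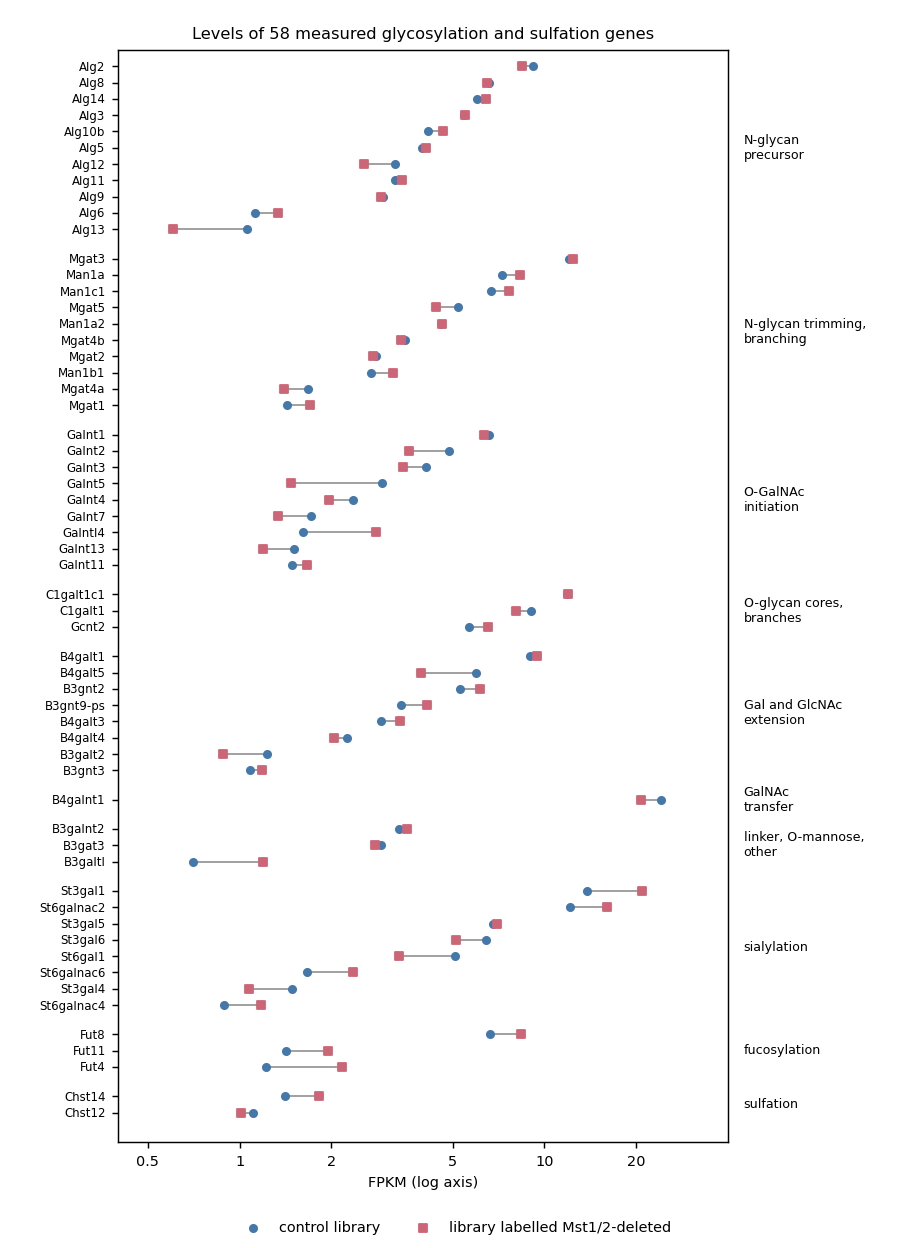
FPKM (horizontal, log axis) of the 58 measured members in the control library (circles) and the library labelled Mst1/2-deleted (squares), grouped by role, with 1 library per genotype and no error bars. Most pairs of symbols lie close together, Galnt5 is lower in the deleted library, and St3gal1, Galntl4, Fut4 and B3galtl are higher.

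Differences were taken as log2 of (FPKM + 1) in the deleted library over (FPKM + 1) in the control library, which understates the differences of low genes. The median difference was 0.02 over the measured members and 0.07 over the 9945 measured genes of the tables. Values above 0 were found for 32 members and below 0 for 26, beside 6286 and 3659 of the 9945 measured genes. Differences smaller than 1.25-fold on this scale were found for 47 members, or 81.0%, beside 79.9% of all measured genes.

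Counts of larger differences were small. At 1.5-fold on the log2(FPKM + 1) scale, 0 members were higher in the deleted library, where 3.02% of all measured genes were. Only Galnt5 was lower by that measure, where 2.59% of all measured genes were. The FPKM ratio without the pseudocount was also read against an interval of 95% that covers counting error only, with no allowance for variation among mice or preparations. A ratio of at least 1.5 with an interval above 1 was found for 4 members, Fut4, Galntl4, B3galtl and St3gal1, beside 6.16% of all measured genes. Of these, St3gal1 fell short of 1.5 when the libraries were rescaled. A ratio as far below 1, with the interval below 1, was found for 3 members, Galnt5, B4galt5 and St6gal1, beside 4.27% of all measured genes. Intervals lay wholly above 1, whatever the size, for 14 members, or 24.1%, beside 29.7% of all measured genes. They lay wholly below 1 for 13 members, or 22.4%, beside 12.3% of all measured genes. The 14 include B3galtl and St6galnac4 and the 13 include B3galt2, which passed the filter only through the library where each was higher.

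**Figure D2:**
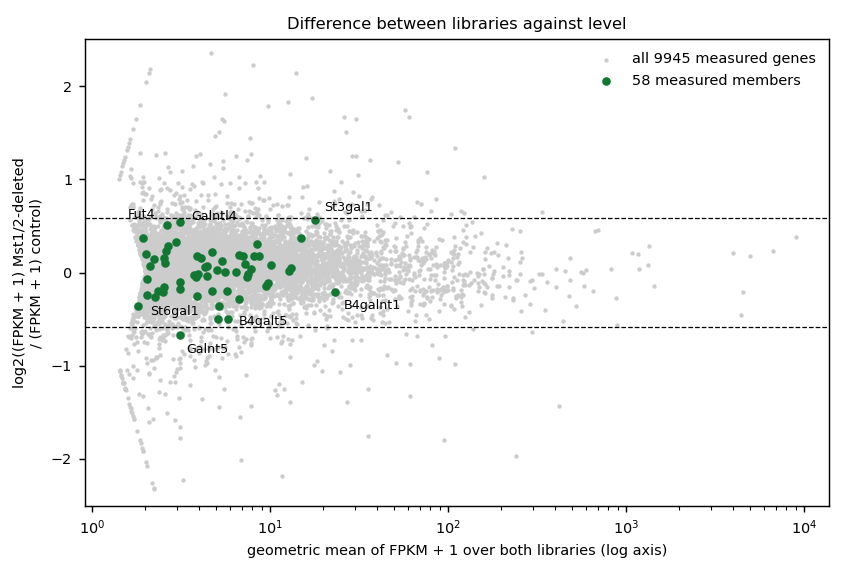
Difference between the libraries on the log2(FPKM + 1) scale (vertical) against the geometric mean of FPKM + 1 (horizontal, log axis) for all 9945 measured genes (grey; 15 lie outside the plotted range) and the 58 measured members (green), with dashed lines at 1.5-fold. Members lie within the band of all genes, and only Galnt5 lies outside the dashed lines.

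Promoter sequence was looked up for the members that differed by at least 1.5-fold by ratio, and is shown for a lower and a higher one of them. The windows shown held no annotated exon, and only these were checked for exons. B4galt5 makes lactosylceramide, an early step of most glycosphingolipids, and B3galtl adds glucose to fucose on thrombospondin repeats. The windows come from RefSeq on build GRCm38.p6, whose coordinates differ from the mm9 build of the expression tables, and show the 240 bases that end 10 bases before the start site, read toward the gene. B4galt5 is on the minus strand at chr2:167349189-167349428 and B3galtl, now named B3glct, on the plus strand at chr5:149677980-149678219. Capitals mark GGGCGG, the GC box bound by Sp and Klf factors, on either strand, where overlapping matches run together.
B4galt5: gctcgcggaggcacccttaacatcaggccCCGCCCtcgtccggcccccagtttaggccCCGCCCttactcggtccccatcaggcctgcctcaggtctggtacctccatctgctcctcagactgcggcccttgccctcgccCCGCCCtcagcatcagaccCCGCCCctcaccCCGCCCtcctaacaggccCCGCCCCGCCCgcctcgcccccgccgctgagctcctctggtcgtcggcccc
B3galtl: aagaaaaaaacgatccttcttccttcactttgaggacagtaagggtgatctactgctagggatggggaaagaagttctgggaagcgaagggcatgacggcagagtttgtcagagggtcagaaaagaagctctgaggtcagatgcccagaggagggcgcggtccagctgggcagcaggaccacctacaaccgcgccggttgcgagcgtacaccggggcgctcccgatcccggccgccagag
The B4galt5 window held 7 matches to GGGCGG, all as CCGCCC on the strand shown, in 72.9% G and C, and the B3galtl window held 0 in 58.3% G and C. In the full window of 250 bases before the start, GGGCGG on either strand was found in 32.7% of 32851 RefSeq entries of all genes and in 54.3% of the 116 entries of the 89 members that had one. GGAATG, the core letters recognised by the Tead factors that carry Yap and Taz to DNA, was found on either strand in 12.6% of all entries and 14.7% of member entries. The 15 members with GGAATG included none of the 5 that had an entry among those 1.5-fold apart by ratio: B3galtl, B4galt5, Fut4, Galnt5 and St6gal1. Of these 5, only B4galt5 had GGGCGG, with 0 matches in the higher B3galtl and Fut4 and in the lower Galnt5 and St6gal1. These are matches of letters in a fixed window and do not show binding.

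Genes for assembly of the N-glycan precursor stood at nearly the same level in both libraries. The Alg genes encode enzymes that build the dolichol-linked oligosaccharide sugar by sugar. Of 12 listed, 11 were measured, with 6 above 0, 5 below 0 and a median of 0.01 on the log2(FPKM + 1) scale. Their FPKM summed to 47.7 in the control library and 47.1 in the deleted library. All 11 counting intervals held 1, as did those of 5767 of the 9945 measured genes. Alg2, a mannosyltransferase and the most abundant of them, was at 9.16 FPKM in the control library and 8.42 in the deleted library. Alg8, a glucosyltransferase that acts late on the precursor, was at 6.55 and 6.47 FPKM. Alg14, the membrane anchor that joins Alg13 to add the second GlcNAc, was at 6.01 and 6.44 FPKM. Its partner Alg13 was at 1.06 FPKM in the control library and 0.605 in the deleted library. The tables hold 2 transcripts of Alg13, and the interval from their summed reads reached from 0.475 to 1.003.

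Genes for trimming and branching of N-glycans were also at similar levels in both libraries. Of 12 listed genes, 10 were measured, with 6 above 0 and 4 below 0 and a median of 0.03 on the log2(FPKM + 1) scale. All 10 lay within 1.25-fold on that scale, as did 79.9% of all measured genes. Mgat3, which adds the bisecting GlcNAc, was the most abundant at 11.99 FPKM in the control library and 12.4 in the deleted library (ratio 1.04, interval 0.963 to 1.11). It stood above the other branching enzymes of its family, Mgat5 at 5.19 and 4.41 FPKM, Mgat4b at 3.49 and 3.39 and Mgat2 at 2.80 and 2.73. Mgat1, which starts the complex branch, was among the lowest measured enzymes of the group at 1.43 and 1.70 FPKM, beside Mgat4a at 1.68 and 1.40. The Golgi mannosidase genes Man1a (7.23 and 8.28 FPKM, ratio 1.15, interval 1.03 to 1.27) and Man1c1 (6.66 and 7.66 FPKM, ratio 1.15, interval 1.05 to 1.27) were slightly higher in the deleted library. The median ratio of all measured genes was 1.06, and centring on the median of all genes brought both to 1.08. Mgat5 (ratio 0.850, interval 0.736 to 0.984) and Mgat4a (ratio 0.837, interval 0.706 to 0.994) were slightly lower.

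Initiation of mucin-type O-glycans was the group with the most members below 0. Its polypeptide GalNAc transferases place the first sugar, and each prefers its own peptide sites. Of 18 listed, 9 were measured, 2 above 0 and 7 below 0, with a median of -0.20 on the log2(FPKM + 1) scale, where 3659 of all 9945 measured genes were below 0. Counting intervals lay wholly below 1 for 6 of them and wholly above 1 for 1, beside 12.3% and 29.7% of all measured genes. Their FPKM summed to 28.2 in the control library and 24.5 in the deleted library.

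Galnt5 (mm9 chr2:57850566-57891582) was at 2.93 FPKM in the control library and 1.47 in the deleted library. Its level was 1.99-fold lower in the deleted library, with a counting interval of 1.59 to 2.49. About 257 and 116 reads lay behind these values. Galntl4 (mm9 chr7:118615175-118923491), now named Galnt18, differed in the other direction, with 1.61 FPKM in the control library and 2.80 in the deleted library (ratio 1.73, interval 1.35 to 2.20). It was the only measured member of the family with an interval above 1.

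The 3 most abundant initiators gave values between these. Galnt1 was at 6.60 and 6.34 FPKM, with an interval that held 1. Galnt2 was at 4.88 FPKM in the control library and 3.59 in the deleted library (ratio 0.737, interval 0.643 to 0.844). Galnt3 was at 4.08 and 3.43 FPKM (ratio 0.842, interval 0.722 to 0.977). Ratios of Galnt4, Galnt7 and Galnt13 were 0.836, 0.781 and 0.790, each with an interval below 1. The Galnt4 locus overlaps Poc1b, so its reads may be shared. As shares of the summed FPKM of the family, Galnt5 held 10.4% in the control library and 6.01% in the deleted library, and Galntl4 held 5.72% and 11.4%. The mucous cell markers were lower over the same libraries. Of the 7 found, 4 were measured and all 4 were lower by at least 1.5-fold, beside 2.59% of all measured genes. These markers were Muc5b at 17.7 and 6.85 FPKM, Clca3 at 7.62 and 2.16, Agr2 at 2.73 and 0.535 and Tff2 at 1.80 and listed at 0. Agr2 and Tff2 passed the filter only through the control library, so the filter itself favoured a lower value for them. The part of the mucous cell markers in the Galnt values was not tested.

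**Figure D3:**
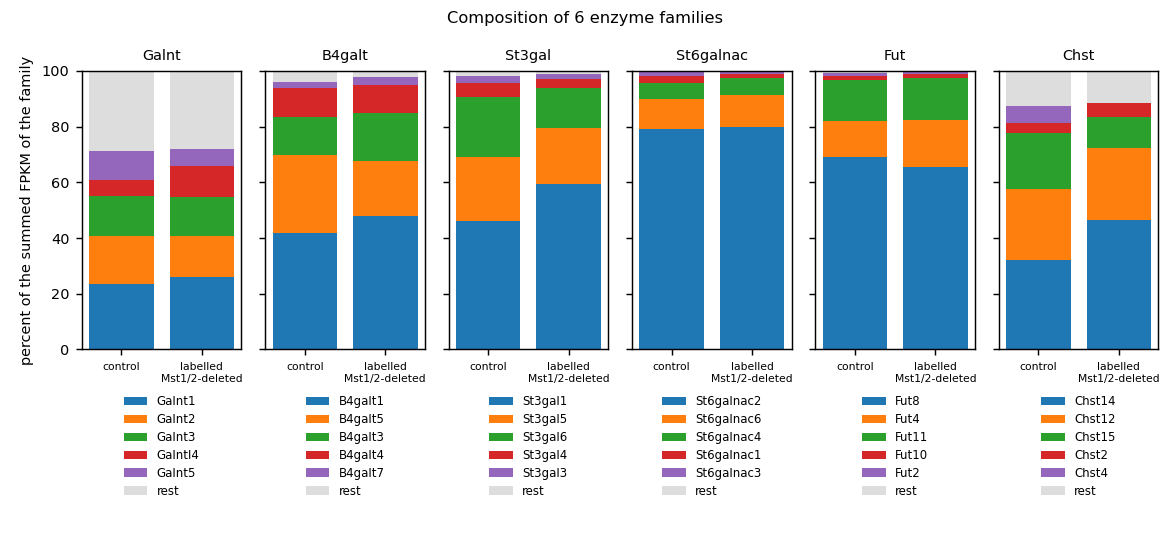
Share of the summed FPKM of 6 enzyme families (vertical, percent) held by each named member in the control library (left bar) and the library labelled Mst1/2-deleted (right bar), 1 library each. The share of St3gal1 in its family is 46.2% in the control library and 59.4% in the deleted library, and Galntl4 and Galnt5 trade rank within the Galnt family.

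Core and branch enzymes of O-glycans were at nearly the same level in both libraries. C1galt1, the galactosyltransferase that makes the common core, was at 9.04 FPKM in the control library and 8.09 in the deleted library (ratio 0.896, interval 0.785 to 1.02). Its dedicated chaperone C1galt1c1, also called Cosmc, was at 11.8 and 11.9 FPKM. Gcnt2, which branches lactosamine chains to form the I antigen, was at 5.67 and 6.53 FPKM (ratio 1.15, interval 1.03 to 1.29). That direction turned when only its most abundant transcript row was used, with a ratio of 0.966. The other 5 listed genes stayed under 1 FPKM. Among them Gcnt1, which makes the branched core of O-glycans, was at 0.405 FPKM in the control library and 0.0903 in the deleted library (ratio 0.223, interval 0.101 to 0.446), from about 50 and 10 reads. Gcnt3, the core branching enzyme of mucus-secreting tissues, lay at about 1 read in each library.

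Extension with galactose and GlcNAc had 8 of 18 listed genes measured, 5 above 0 and 3 below 0, with a median of 0.08 on the log2(FPKM + 1) scale. Summed FPKM was 34.0 for the control and 33.8 for the deleted library. B4galt1, the main galactosyltransferase of lactosamine chains, was at 8.94 and 9.47 FPKM (ratio 1.06, interval 0.967 to 1.16). B4galt5 (mm9 chr2:167123945-167174678) was at 5.98 FPKM in the control library and 3.93 in the deleted library (ratio 0.657, interval 0.580 to 0.745). It made up 28.0% of the B4galt family's summed FPKM in the control library and 19.8% in the deleted library. B4galt6, which shares the lactosylceramide step with B4galt5, was lower too, at 0.420 and 0.175 FPKM (ratio 0.417, interval 0.256 to 0.680), though under the filter in both libraries. B3gnt2, which extends polylactosamine, was at 5.27 and 6.17 FPKM (ratio 1.17, interval 1.03 to 1.37). Under the filter, B3gnt7, which extends keratan sulfate chains, was at 0.358 and 0.101 FPKM (ratio 0.281, interval 0.0900 to 0.670) and B3gnt5, which starts lacto-series glycolipids, at 0.375 and 0.603 FPKM (ratio 1.61, interval 1.10 to 2.40).

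The most abundant member in the control library was a glycolipid enzyme. B4galnt1 (mm9 chr10:126602281-126609386), which adds GalNAc to gangliosides, was at 24.1 FPKM in the control library and 20.7 in the deleted library (ratio 0.858, interval 0.792 to 0.924). The other members of its role were low: B3galnt1, which makes globoside, was at 0.485 and 0.470 FPKM and B4galnt2, which makes the Sda antigen, at 0.371 and 0.381, while B4galnt3 is listed at 0 in both libraries.

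Enzymes of the proteoglycan linker, of O-mannose and of other special glycans had 3 of 8 listed genes measured. B3galnt2, which acts on the O-mannose glycan of dystroglycan, was at 3.33 FPKM in the control library and 3.54 in the deleted library, and its locus overlaps Tbce. B3gat3, which adds the glucuronic acid that completes the linker, was at 2.91 and 2.78 FPKM. Intervals of both ratios held 1. B3galtl (mm9 chr5:150480832-150565174) was at 0.702 FPKM in the control library and 1.19 in the deleted library (ratio 1.70, interval 1.29 to 2.26), from about 86 and 131 reads. It passed the filter only through the deleted library.

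Sialylation held the widest spread of differences among the roles with at least 3 measured members apart from O-glycan initiation. Of 14 listed sialyltransferases 8 were measured, 5 above 0 and 3 below 0, with a median of 0.12 on the log2(FPKM + 1) scale. Together they reached 50.3 FPKM in the control library and 58.5 in the deleted library, low members included. Counting intervals lay wholly above 1 for 4 and wholly below 1 for 2, beside 29.7% and 12.3% of all measured genes. Of the 4, St6galnac4 passed the filter only through the deleted library, and its locus overlaps that of St6galnac6, another of them.

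St3gal1 (mm9 chr15:66934437-67008444), which caps the galactose of the common O-glycan core with sialic acid, was at 13.8 FPKM in the control library and 20.8 in the deleted library. The ratio was 1.51 with an interval of 1.43 to 1.60, from about 2157 and 2919 reads, the most of any member. It was 1.46 after rescaling FPKM to a common total (TPM) and 1.42 after centring on the median of all measured genes, so the call at 1.5-fold ended under both. St6galnac2, which adds sialic acid to the first GalNAc of O-glycans, was at 12.2 and 16.0 FPKM (ratio 1.32, interval 1.19 to 1.47). It held 79.1% of the summed FPKM of its family in the control library and 79.8% in the deleted library. St6gal1 (mm9 chr16:23224835-23360420), which caps lactosamine on N-glycans, was at 5.10 FPKM in the control library and 3.33 in the deleted library (ratio 0.653, interval 0.573 to 0.745). The level of St3gal1 was 2.70 times that of St6gal1 in the control library and 6.26 times in the deleted library, on the FPKM scale, which accounts for length.

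The remaining sialyltransferases lay between these. St3gal5, which makes the ganglioside GM3, was at 6.79 and 7.0 FPKM, with an interval that held 1. St3gal6, which caps lactosamine, was at 6.45 FPKM in the control library and 5.14 in the deleted library (ratio 0.796, interval 0.660 to 0.959). St6galnac6 was at 1.67 and 2.35 FPKM and St6galnac4 at 0.888 and 1.17. The loci of these last enzymes overlap each other, and the split of reads between them is uncertain. Alveolar type 1 markers were higher in the deleted library, with Ager at 32.9 and 107 FPKM and Hopx at 13.6 and 45.4, and their part in the sialyltransferase values was not tested.

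All 3 measured fucosyltransferases of 8 listed were higher in the deleted library. Where 29.7% of all measured genes had a counting interval above 1, each of these 3 did. Their summed FPKM with the low members was 9.58 for the control and 12.8 for the deleted library, and the median difference was 0.30 on the log2(FPKM + 1) scale. Fut8, which adds the core fucose of N-glycans, made up most of it at 6.62 and 8.40 FPKM (ratio 1.27, interval 1.13 to 1.43). Fut4 (mm9 chr9:14552903-14556566), which makes Lewis x structures, was at 1.22 FPKM in the control library and 2.16 in the deleted library (ratio 1.77, interval 1.41 to 2.25), from about 121 and 192 reads. Fut11 was at 1.42 and 1.96 FPKM (ratio 1.37, interval 1.08 to 1.74). Fut2, the secretor enzyme of mucosal surfaces, was at 0.114 and 0.108 FPKM, and Fut1 and Fut7 are listed at 0 in both libraries.

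**Figure D4:**
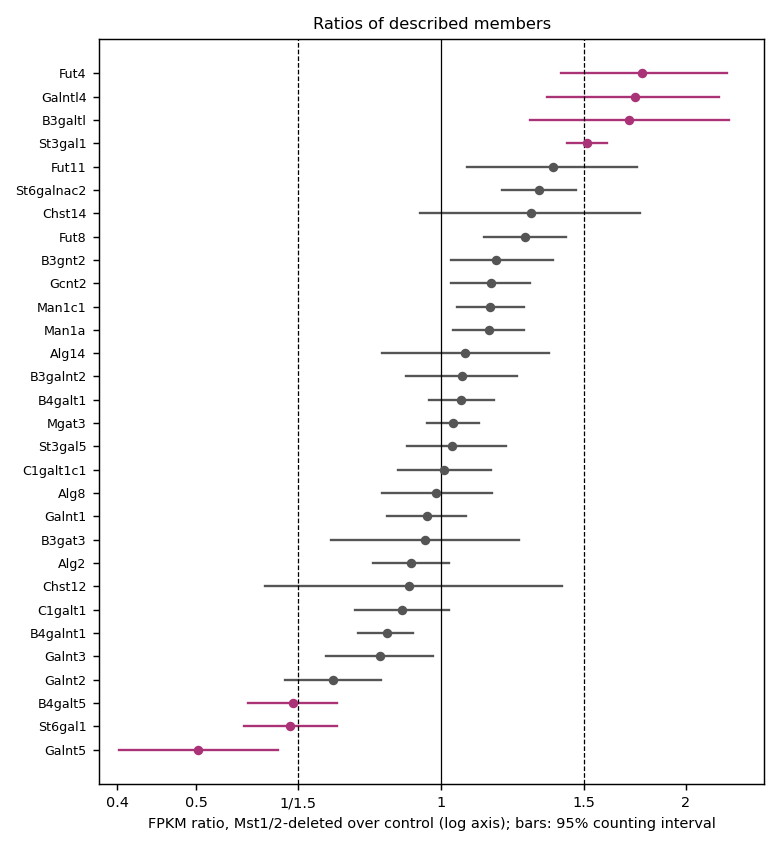
FPKM ratio of the deleted over the control library (horizontal, log axis) for the described measured members, with bars for the 95% counting interval and dashed lines at 1.5-fold in either direction. The 7 members past 1.5-fold with an interval off 1 are coloured, from Galnt5 at 0.503 to Fut4 at 1.77.

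Transcripts of the Chst family, which sulfates glycans, were low in both libraries. Of 14 listed genes 2 were measured, and all of them together came to 4.38 FPKM in the control library and 3.91 in the deleted library. Chst14, which sulfates dermatan, was at 1.41 and 1.82 FPKM (ratio 1.29, interval 0.942 to 1.76). Chst12, which sulfates chondroitin, was at 1.10 and 1.01 FPKM (ratio 0.914, interval 0.608 to 1.41). Both intervals held 1. Under the filter, Chst15, which adds a further sulfate to chondroitin sulfate, was at 0.884 FPKM in the control library and 0.429 in the deleted library (ratio 0.486, interval 0.331 to 0.693). Chst4, which sulfates GlcNAc on O-glycans, was at 0.274 FPKM in the control library, from about 15 reads, and is listed at 0 in the deleted library.

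The 60 members under the filter had few reads. Of these, 6 are listed at 0 in both libraries (B3galt5, B4galnt3, Chst13, Fut1, Fut7 and Mgat4c), 4 in the control library only (B4galnt4, Galnt14, Galnt9 and Galntl5) and 5 in the deleted library only (B3gat1, Chst1, Chst4, Chst9 and Fut4-ps1). Among the 45 above 0 in both, the interval lay above 1 for 2, B3gnt5 and Gcnt7, and below 1 for 4, Gcnt1, B4galt6, B3gnt7 and Chst15. Of all 22072 gene symbols, 4912 are listed at 0 in both libraries. The matching shares over all genes under the filter were not computed for 0 in 1 library only or for the intervals. These counts are therefore not read as a trait of the members. For the rest of the 45 a difference was not detectable at this depth.

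Other genes of these pathways were read from lists drawn by known function. At 1.5-fold on the log2(FPKM + 1) scale, 3.02% of all measured genes were higher in the deleted library and 2.59% lower. Oligosaccharide transfer, dolichol supply and glucosidases had 26 measured genes, 0 of them 1.5-fold apart on the log2(FPKM + 1) scale in either direction and a median of -0.02. Its most abundant genes were subunits of the oligosaccharyltransferase, Dad1 at 74.3 and 70.7 FPKM and Stt3a at 27.3 and 26.1. Nucleotide sugar synthesis and transport had 26 of 32 measured, again 0 in either direction, and a median of -0.08. Gfpt1, the rate-limiting enzyme of UDP-GlcNAc synthesis, was at 23.8 and 22.3 FPKM, and Ugp2, which makes UDP-glucose, at 13.4 and 14.7. Cmas, which activates sialic acid, was at 8.66 FPKM in the control library and 5.77 in the deleted library (ratio 0.667, interval 0.568 to 0.784).

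The list of sulfate donor supply and other sulfotransferases had 16 of 28 measured and a median of -0.05. Of these, 2 were at least 1.5-fold higher in the deleted library and 1 lower, beside 3.02% and 2.59% of all measured genes. Ndst1, which replaces acetyl groups of heparan sulfate by sulfate, was at 5.61 FPKM in the control library and 11.9 in the deleted library (ratio 2.13, interval 1.96 to 2.31). Hs2st1, which sulfates the uronic acid of the same chain, was at 5.79 and 9.92 FPKM (ratio 1.71, interval 1.56 to 1.88). Sulf2, which removes sulfate from heparan sulfate outside the cell, was at 6.90 and 4.22 FPKM (ratio 0.612, interval 0.546 to 0.687). Other measured heparan sulfate sulfotransferases had ratios nearer 1, such as Ndst2 at 0.946, Hs6st1 at 1.04 and Hs3st1 at 0.714. The sulfate transporter gene Slc26a2, the most abundant of the list, was at 9.22 and 12.5 FPKM. The chain-building list had 8 of 18 measured and 0 past 1.5-fold, with Chsy1, which polymerises chondroitin, at 10.5 and 14.7 FPKM and Ext2, which polymerises heparan sulfate, at 13.7 and 10.6.

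The remaining glycosyltransferases and the mucins completed the comparison. Of 24 other glycosyltransferases 10 were measured, with a median of 0.10. By 1.5-fold 0 were higher and 1 lower, beside 3.02% and 2.59% of all measured genes. St8sia6, a sialyltransferase that adds sialic acid to sialic acid, was the lower one, at 2.21 FPKM in the control library and 0.578 in the deleted library (ratio 0.262, interval 0.183 to 0.363). It passed the filter only through the control library. Ogt, which adds single GlcNAc to cytosolic and nuclear proteins, was at 9.47 and 10.4 FPKM, and Pofut2, which adds fucose to thrombospondin repeats, at 4.09 and 4.19. Mucins and sialomucins, the proteins that carry many of these glycans, had 5 of 17 measured and a median of -0.29. Of these, 0 were higher and 2 lower by 1.5-fold, beside the same 3.02% and 2.59%. Muc5b, the secreted airway mucin, was at 17.7 and 6.85 FPKM and Muc4, a membrane mucin, at 7.26 and 4.14. Muc1, the most abundant, was at 181 and 183 FPKM, and Cd164 was at 52.3 and 45.7.

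**Figure D5:**
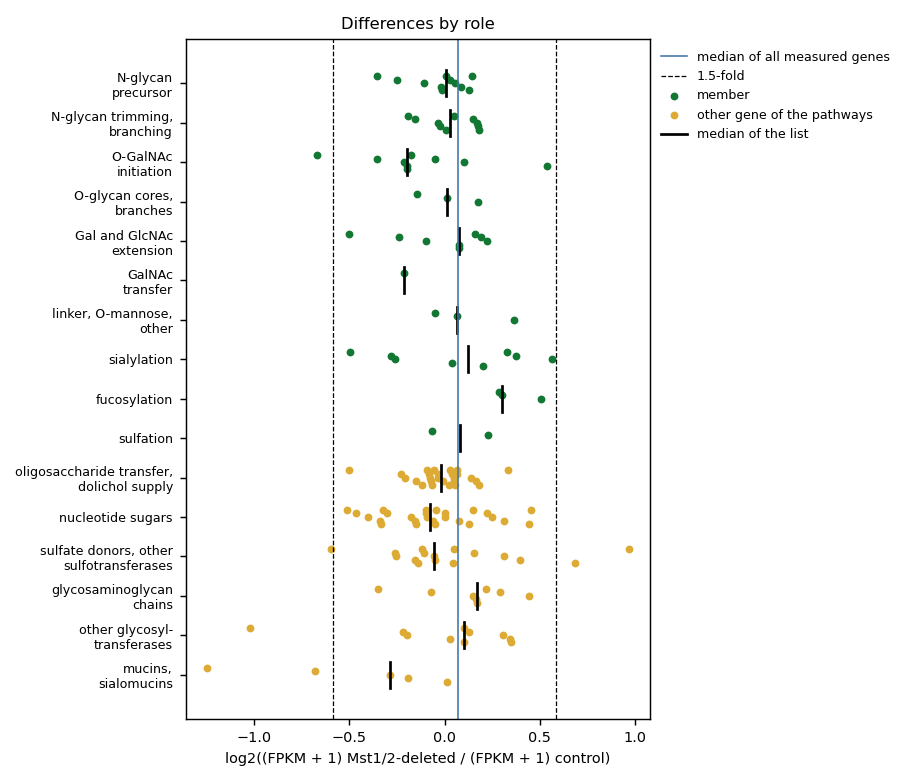
Difference on the log2(FPKM + 1) scale (horizontal) of each measured member (green) and each measured gene of the 6 pathway lists (gold), by role, with black bars at list medians, a blue line at the median of all measured genes (0.07) and dashed lines at 1.5-fold. O-GalNAc initiation has its median at -0.20 and fucosylation at 0.30, while Muc5b, St8sia6, Ndst1 and Hs2st1 lie outside the dashed lines.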

How the data were processed

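Cells were sorted from lung and RNA of 4 mice per genotype was pooled into 1 library each. The submitters' processing notes name TopHat, Cufflinks and build mm9; their versions and strandedness are not given here. Each library has a table of 28107 transcript rows. Per the file headers, the values the authors deposited are FPKM, scaled by transcript length and mapped fragments. Per the file headers, the deposited coverage is the mean read depth of a transcript, used here only to approximate reads.

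FPKM was summed per gene symbol. All 148 member rows had status OK in both libraries; 20 members had more than 1 row and 17 overlap another symbol's locus, where the sharing of reads is uncertain. Differences are log2((FPKM + 1) deleted / (FPKM + 1) control), for genes at 1 FPKM or more in at least 1 library. Approximate reads are coverage times length over 47.1 bases, the median of values from 25 to 75 bases in rows of single-transcript genes; this size is an assumption. They give about 8772260 and 8339860 reads and exact (Clopper-Pearson) 95% intervals of FPKM ratios. The intervals are scaled by a depth ratio of 0.895, deleted over control. This ratio comes from the median of coverage over FPKM in each library, not from the read totals. For genes with several rows an interval uses summed reads and ignores the rows' lengths. Intervals cover counting error only, and amplified reads are not independent molecules. Values under 0.001 FPKM are given as 0. No fold is given against 0.

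Described members were all those that differed by 1.5-fold or more on that scale, or by ratio with an interval off 1, and the 3 most abundant per role. For pathway lists these were genes past 1.5-fold on that scale and the 2 most abundant. Members under the filter, further family members, Cmas, Ndst2, Hs6st1, Hs3st1 and the cell type markers were named after their values were seen. Members and lists were chosen with earlier results of these data known. RefSeq promoters (GRCm38.p6) matched 89 members by way of transcript accessions, which matched 117 of 118. Only the windows shown were checked for exons, in GENCODE vM21. Alternatives were a pseudocount of 0.1, no filter, a filter of 5 FPKM, the highest row per symbol, rescaling to TPM, centring and status. Scripts were tested on simulated data and used Python 3.11.15, numpy 2.4.6, pandas 2.3.3, scipy 1.17.1 and matplotlib 3.10.9.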

Additional observations from a re-analysis of the deposited data

How the results depend on the processing

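The count of members at least 1.5-fold apart depended on how low values were treated. It was 0 higher and 1 lower, and a pseudocount of 0.1 gave 4 higher and 4 lower of 58, where 6.17% and 4.79% of all measured genes were. Rescaling FPKM to TPM multiplied all values, so that more low genes passed the same filter and the pseudocount weighed less: 85 members then passed, 4 higher and 11 lower, beside 6.79% and 8.79% of all genes that passed. A filter of 5 FPKM gave 0 higher and 0 lower, since it leaves Galnt5 out. With no filter, with the highest row per symbol, with centring on the median of all genes and with rows of status OK only, Galnt5 was again the lower member and 0 were higher. The median difference of measured members lay between -0.07 and 0.03 over the alternatives. With the highest row of a symbol in place of the sum, the ratio of Gcnt2 turned from 1.15 to 0.966, that of B4galnt1 was 0.932 and that of St3gal5 was 0.856. The ratio of St3gal1 was 1.42 with centring and 1.46 with TPM, both under 1.5. No paired analysis was possible because there was 1 library per genotype. Depth limits the members under 1 FPKM most, where a few reads set the ratio. With 1 pooled library per genotype, differences between mice, sorts or preparations cannot be told apart from the genotype.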

Other observations

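For some members the split between transcripts of the same gene differed more than the gene's total. B3gnt2 has 2 transcripts in the tables, one at 2.00 FPKM in the control library and 4.44 in the deleted library and the other at 3.27 and 1.73. St3gal5 has one transcript at 6.18 and 5.29 FPKM and another at 0.614 and 1.72. Gcnt2 has 3 transcripts, which start at different first exons, at 1.71 and 2.64, 0.283 and 0.342, and 3.68 and 3.55 FPKM. B4galnt1 has 2, at 7.87 and 5.54 and at 16.2 and 15.1 FPKM. All of the B3gnt5 reads lay on one transcript in the control library (0.375 FPKM) and on the other two in the deleted library (0.425 and 0.178 FPKM). Cufflinks divides reads that fit several transcripts by estimation, and the tables used here give no error for that division.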
